A study of Arabidopsis thaliana with 12 samples.

Results

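The abscisic acid (ABA) pathway was followed through 35 genes, taken by locus identifier from a total of 33687 transcript models in the deposited tables, and each of the 35 was present. They were 9 receptors of the PYR/PYL family, 9 clade A protein phosphatases 2C (PP2Cs), 3 SnRK2 kinases, 5 bZIP transcription factors, 4 genes of ABA synthesis, 4 of ABA catabolism and 1 of ABA release. ABA is the hormone through which plants respond to water shortage and hold seeds dormant. In its absence the clade A PP2Cs dephosphorylate the SnRK2 kinases and keep them inactive. ABA bound to a PYR/PYL receptor closes the receptor onto the phosphatase, the kinases are freed, and they phosphorylate the ABF and ABI5 factors, which act on genes carrying the ABA-responsive element (ABRE) upstream. In Arabidopsis seedlings, transcripts of many clade A PP2Cs are known to rise after ABA is applied, and those of several receptors are known to fall.

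Poly(A) RNA had been sequenced from pooled seedlings, 10 days old, of 4 Arabidopsis thaliana lines in the Col-0 background, with 3 libraries per line. The plants stood upright on half-strength MS medium and received no ABA or other treatment. WT was Col-0. The line doa10a/b RNAi 4-2 carried a T-DNA insertion in AtDOA10A, which encodes an endoplasmic reticulum E3 ubiquitin ligase, together with an RNAi construct directed at AtDOA10B, and was represented by 1 RNAi line. In amiNAA10 an artificial microRNA was directed at NAA10, the catalytic subunit of the N-terminal acetyltransferase NatA, and naa20 was a mutant of the NatB catalytic subunit. The libraries were of whole seedlings, so that fewer cells of a type and less RNA per cell cannot be told apart.

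The deposited values were means over the 3 libraries of a line, in read counts divided by size factors (normalized counts). The printed digits allowed most means to be split back into the whole reads of the 3 libraries, named a, b and c from the largest to the smallest size factor. A split was had for 97.9% of transcripts with a mean of at least 10 in WT, 97.8% in doa10a/b RNAi 4-2, 74.3% in amiNAA10 and 73.9% in naa20, where means above 1000 could not be split. Summed means were between 20338996 and 21639733 per line. Of the targeted genes, AtDOA10A stood at 943, 789 and 790 in the RNAi libraries against 2385, 2157 and 2273 in WT, whereas AtDOA10B was higher, at 496, 512 and 525 against 299, 277 and 269. By RT-qPCR with primers on either side of the RNAi target, the study reported reduced AtDOA10B mRNA in this line. Its text gives the level relative to Col-0, and its figure legend relative to the untransformed Atdoa10a mutant. The read counts here are set against Col-0. The RNAi construct holds exon sequence of AtDOA10B, and reads of the construct and of the gene cannot be told apart in counts per gene. NAA10 stood at 108, 125 and 135 in amiNAA10 against 918, 845 and 892 in WT. NAA20 was higher in the libraries labelled naa20, at 676, 692 and 672 against 297, 256 and 236 in WT. The allele of this mutant is not given in the sources used here, so the transcript level cannot say whether that label holds. These libraries are called the libraries labelled naa20 throughout. WT and the RNAi line stood in 1 table, while the other lines were normalized in tables of their own. By the study's data statement, the WT libraries related to the amiNAA10 and naa20 analyses are in another series. These lines are therefore compared here with the WT libraries related to the RNAi line. For them the series, the table and the genotype cannot be told apart from each other in any difference from WT.

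Leaf markers were abundant in each line (summed means 640694 in WT, 662442 in the RNAi line, 529554 in amiNAA10 and 639124 in the libraries labelled naa20) and root markers were present (5870, 4414, 4663 and 4542), while flower markers summed to at most 22.1. Single leaf markers, which had means only, differed more than these sums in the NAT lines. LHCB2.1 had a log2 ratio to WT of -1.12 in amiNAA10 and -0.69 in the libraries labelled naa20, and CA1 of -0.90 and -0.46. Of the root markers, SCR fell in amiNAA10 (-0.44 ± 0.07, adjusted p = 6.92e-04). In the libraries labelled naa20 COBL9 and CASP1 fell (-0.80 ± 0.16 and -0.50 ± 0.16, adjusted p = 0.00199 and 0.0301) and NRT2.1 rose (1.71 ± 0.49, adjusted p = 0.0203). The RNAi libraries held summed root marker levels of 4166 to 4806 against 5439 to 6570 in WT, and of the 4 root markers tested 1 fell, PHT1;1 (log2 fold change -0.58 ± 0.08 SE, limma adjusted p = 0.00486). Seed storage transcripts were near 0 in WT (a summed mean of 1.28, with OLEO1 and SESA1 at 0) but summed to 158 in amiNAA10, with CRA1 at 142 and SESA1 at 0. CRA1 could not be split there, and the others stood mainly in amiNAA10 library b, with 0, 42 and 0 reads of CRC and 3, 9 and 0 of OLEO1 in libraries a, b and c. The part of the leaf, root and seed markers in the differences described here was not tested.

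In WT, transcript levels were compared between genes as normalized counts per kilobase of annotated exon. ABA1, the zeaxanthin epoxidase early in ABA synthesis, had the highest level of the 35, at 6253 per kilobase. PYL4 (1638), ABF3 (1449), PYR1 (1099), HAB1 (805) and ABI1 (687) followed, and their order is of means only. NCED3, the dioxygenase whose cleavage of carotenoids limits the rate of ABA synthesis, stood far down at 40.9 per kilobase, and HAI2, AHG1, ABI5 and HAI3 were the lowest, at 8.46, 4.3, 2.84 and 1.06. The 9 receptors together gave 5102 per kilobase in WT and the 9 PP2Cs 2698, a ratio of 1.89.

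The sequences upstream of the members were read from the RefSeq genome (build TAIR10.1), in which all 35 matched by locus. The 250 bases before each annotated start were searched for the ABRE core, spelled ACGTG, on both strands (CACGT on the strand printed), with overlapping matches counted as 1 site. The G-box CACGTG contains the core on both strands. The core was found for 22.9% of 27443 protein-coding genes, and for 6 of 9 PP2Cs, 4 of 5 bZIP factors, 3 of 4 catabolism genes and 2 of 9 receptors. A match is a description of letters and not a site of binding. Upstream sequences of 6 members described further on are shown, with the ABRE cores in capitals. The 2 receptors shown have no core and the 2 PP2Cs shown have 4 sites each, so they do not stand for their groups.
PYL4, chr2:16049668-16049917, plus strand: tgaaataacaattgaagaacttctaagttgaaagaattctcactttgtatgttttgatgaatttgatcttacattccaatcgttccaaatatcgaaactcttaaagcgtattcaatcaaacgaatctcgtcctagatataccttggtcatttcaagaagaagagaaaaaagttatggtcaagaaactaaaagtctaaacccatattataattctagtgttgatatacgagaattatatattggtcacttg
PYL8, chr5:21560351-21560600, plus strand: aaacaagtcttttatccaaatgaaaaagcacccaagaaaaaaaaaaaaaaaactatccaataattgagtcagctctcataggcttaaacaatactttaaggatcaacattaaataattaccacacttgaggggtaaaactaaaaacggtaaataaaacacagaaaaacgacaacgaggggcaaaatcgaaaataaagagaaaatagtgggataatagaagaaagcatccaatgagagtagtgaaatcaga
PP2CA, chr3:3585851-3586100, minus strand: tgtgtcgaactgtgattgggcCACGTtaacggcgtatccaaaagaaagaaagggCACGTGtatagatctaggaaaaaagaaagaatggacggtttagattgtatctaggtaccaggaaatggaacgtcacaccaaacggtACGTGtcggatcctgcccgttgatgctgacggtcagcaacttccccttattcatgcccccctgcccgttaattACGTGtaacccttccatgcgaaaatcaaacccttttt
HAI2, chr1:2282829-2283078, minus strand: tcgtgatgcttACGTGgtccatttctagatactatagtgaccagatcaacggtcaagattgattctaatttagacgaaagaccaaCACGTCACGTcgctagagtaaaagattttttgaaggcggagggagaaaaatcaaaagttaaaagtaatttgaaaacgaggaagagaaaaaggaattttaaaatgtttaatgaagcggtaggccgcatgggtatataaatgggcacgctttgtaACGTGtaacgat
ABI5, chr2:15207637-15207886, minus strand: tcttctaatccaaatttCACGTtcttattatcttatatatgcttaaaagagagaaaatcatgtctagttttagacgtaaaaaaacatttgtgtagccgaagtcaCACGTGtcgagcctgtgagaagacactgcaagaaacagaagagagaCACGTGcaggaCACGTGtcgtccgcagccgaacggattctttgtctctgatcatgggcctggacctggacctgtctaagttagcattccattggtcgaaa
CYP707A1, chr4:10521009-10521258, plus strand: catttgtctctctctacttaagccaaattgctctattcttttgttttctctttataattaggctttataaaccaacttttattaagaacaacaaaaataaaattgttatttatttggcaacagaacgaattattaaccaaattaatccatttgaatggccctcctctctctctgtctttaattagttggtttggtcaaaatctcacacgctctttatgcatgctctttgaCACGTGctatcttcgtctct
The window of PP2CA held 4 separate sites, that of HAI2 also 4, that of ABI5 4 with 3 G-boxes among them, and that of CYP707A1 1, a G-box 20 bases before the start. Among receptors, PYR1 had 1 site and PYL7 had 2, of which 1 was a G-box. No core stood in the windows of PYL4 and PYL8, nor in those of PYL1, PYL2, PYL5, PYL6 and PYL9. Among PP2Cs, ABI1, ABI2 and HAI1 also had none.

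The comparison of doa10a/b RNAi 4-2 with WT set this line beside Col-0 in unstressed seedlings. Its read counts were lower for AtDOA10A and higher for AtDOA10B, while the study's RT-qPCR, with the references given above, gave AtDOA10B as reduced. The transcript that fell was BGLU18, a beta-glucosidase that releases ABA from its inactive glucose ester in the endoplasmic reticulum. No member rose. Apart from BGLU18, receptor transcripts tended to stand slightly above WT and PP2C transcripts below it, by amounts that did not pass the test gene by gene. Of 31 members tested with limma 0 rose and 1 fell at an adjusted p under 0.05, where 1.12% of 19611 transcripts rose and 1.12% fell. At an unadjusted p under 0.05 there were 12 of 31 members, against 16.5% of all transcripts tested. By the ratio of means, 0 of 32 members were past 1.5-fold higher and 3 were past 1.5-fold lower (BGLU18, NCED3 and HAI2), against 1.39% and 2.15% of 20086 transcripts.

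BGLU18 (AT1G52400, chromosome 1, 19514989 to 19518411, plus strand) stood at 1161, 1656 and 1522 in the WT libraries and at 440, 552 and 807 in the RNAi libraries. The highest RNAi library was below the lowest WT library. The log2 fold change was -1.30 ± 0.19 (SE, n = 3 per line, limma adjusted p = 0.00512), and without 1 library in turn it was between -1.53 and -1.10, with the adjusted p at most 0.0495. BGLU33, a vacuolar beta-glucosidase with the same substrate, was named after its values were seen. It stood at 518, 396 and 416 in WT and at 221, 244 and 245 in the RNAi line (log2 fold change -0.89 ± 0.11 SE, limma adjusted p = 0.00224).

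Of the synthesis genes, NCED3 (AT3G14440) stood at 75.2, 139 and 120 in WT and at 45.7, 35.6 and 70 in the RNAi line. The groups did not overlap, by a narrow margin, with WT library a nearest to the RNAi libraries. Its log2 fold change of -1.14 ± 0.27 (SE) had a limma adjusted p of 0.0562. Without WT library a it was -1.40 with an adjusted p of 0.0457, without RNAi library c also -1.40 with 0.0246, and in a fit over all 12 libraries -1.12 with 0.0131. Without RNAi library b it was -0.92 with 0.247, and without RNAi library a or WT library b or c it was -1.09, -0.96 and -1.06 with 0.16, 0.0861 and 0.107. The other settings gave an adjusted p from 0.0539 to 0.0685. AAO3, the oxidase of the last step, stood at 547, 540 and 547 against 489, 473 and 477, a log2 fold change of -0.18 ± 0.07 (SE, limma adjusted p = 0.202). ABA2, the dehydrogenase before it, had a log2 fold change of 0.02 ± 0.08 (SE, limma adjusted p = 0.951). ABA1 was too abundant to split, with means of 15767 in the RNAi line and 16289 in WT. The catabolic hydroxylases moved in neither direction beyond the test. CYP707A1 stood at 298, 344 and 252 against 218, 259 and 226 (log2 fold change 0.34 ± 0.12 SE, limma adjusted p = 0.194), and CYP707A4 at 14.6, 15.8 and 19.7 against 21.7, 25.2 and 27.6 (-0.55 ± 0.26, adjusted p = 0.332).

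**Figure D1:**
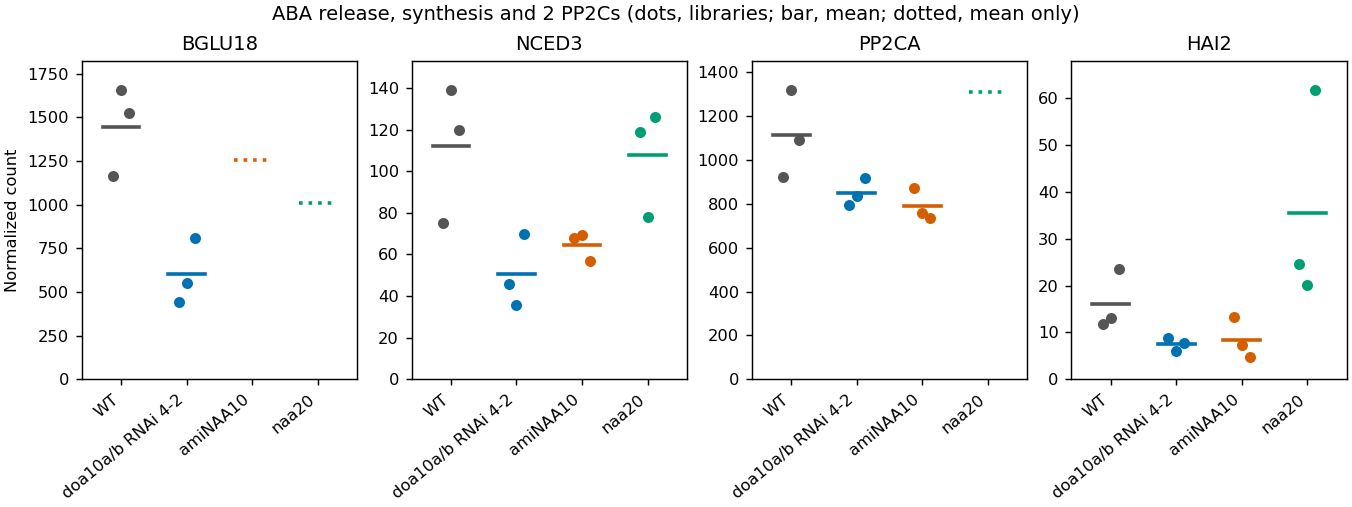
Normalized counts (linear axis from 0) of BGLU18, NCED3, PP2CA and HAI2 in the 4 lines. Dots are libraries, bars are line means, and a dotted bar is a mean that could not be split. For BGLU18 the 3 RNAi libraries lie at 440 to 807, below the WT libraries at 1161 to 1656.

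The receptors and the PP2Cs, which form the co-receptor pair of ABA, stood apart from each other in the RNAi line. Of 9 receptors 6 had a ratio of means above 0 on the median-centred log2 scale, with a median of 0.10 and a range from -0.07 to 0.23. All 9 PP2Cs had a ratio below 0, with a median of -0.38 and a range from -1.02 to -0.13. The median over all transcripts with a mean of at least 10 was 0 by construction, and 50% of them lay below 0. No single receptor or PP2C passed the test after adjustment. All 3 RNAi libraries were higher than all 3 WT libraries for 2 of the 9 receptors, where 11.0% of transcripts tested were so, and lower for 4 of the 7 PP2Cs tested, where 10.7% were.

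PYL8, a receptor known for its role in root ABA responses, stood at 1179, 1148 and 1110 in WT and at 1335, 1303 and 1384 in the RNAi line, without overlap. The log2 fold change was 0.23 ± 0.06 (SE, limma adjusted p = 0.0779). PYL1 likewise did not overlap, with 832, 715 and 788 against 888, 902 and 843 (0.18 ± 0.07, adjusted p = 0.248). PYL4, the most abundant receptor, stood at 2859, 1981 and 2234 in WT and at 2988, 2868 and 2453 in the RNAi line, so that WT library a lay within the RNAi range. PYR1, PYL2, PYL5, PYL6, PYL7 and PYL9 overlapped between the lines, with log2 fold changes from -0.07 to 0.17.

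Among PP2Cs, PP2CA (AT3G11410, chromosome 3, 3583782 to 3585850, minus strand) stood at 925, 1320 and 1093 in WT and at 795, 838 and 919 in the RNAi line. The highest RNAi library lay just below the lowest WT library. The log2 fold change was -0.37 ± 0.11 (SE, limma adjusted p = 0.112). ABI1 stood at 1432, 1638 and 1403 against 1205, 1285 and 1339 (-0.22 ± 0.07, adjusted p = 0.156), and ABI2 at 315, 412 and 367 against 292, 302 and 279 (-0.32 ± 0.10, adjusted p = 0.146). Both are founding phosphatases of the clade, identified through ABA-insensitive mutants. HAI2, of a group named for its strong induction by ABA, stood at 11.8, 13.1 and 23.5 against 8.75, 5.94 and 7.66 (-0.97 ± 0.38, adjusted p = 0.224). AHG1, best known from seeds, had low counts with 7.25, 6.05 and 7.14 against 1.95, 3.96 and 3.28, and did not enter the test. HAB1, HAB2, HAI1 and HAI3 overlapped between the lines.

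Library by library, the median receptor lay above the median PP2C by 0.54, 0.40 and 0.39 in RNAi libraries a, b and c, both taken on the log2 scale relative to the WT mean. The same difference was 0.26, -0.16 and -0.09 in WT libraries a, b and c. The 3 RNAi libraries were above all 3 WT libraries, and WT library a was the nearest. On the ratio of means the difference between the medians was 0.49. The summed receptor level per summed PP2C level was 1.68, 1.52 and 1.42 in the RNAi libraries and 1.46, 0.992 and 1.12 in WT, where the RNAi library c lay below WT library a. Since members are not replicates, no test was made of these differences.

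**Figure D2:**
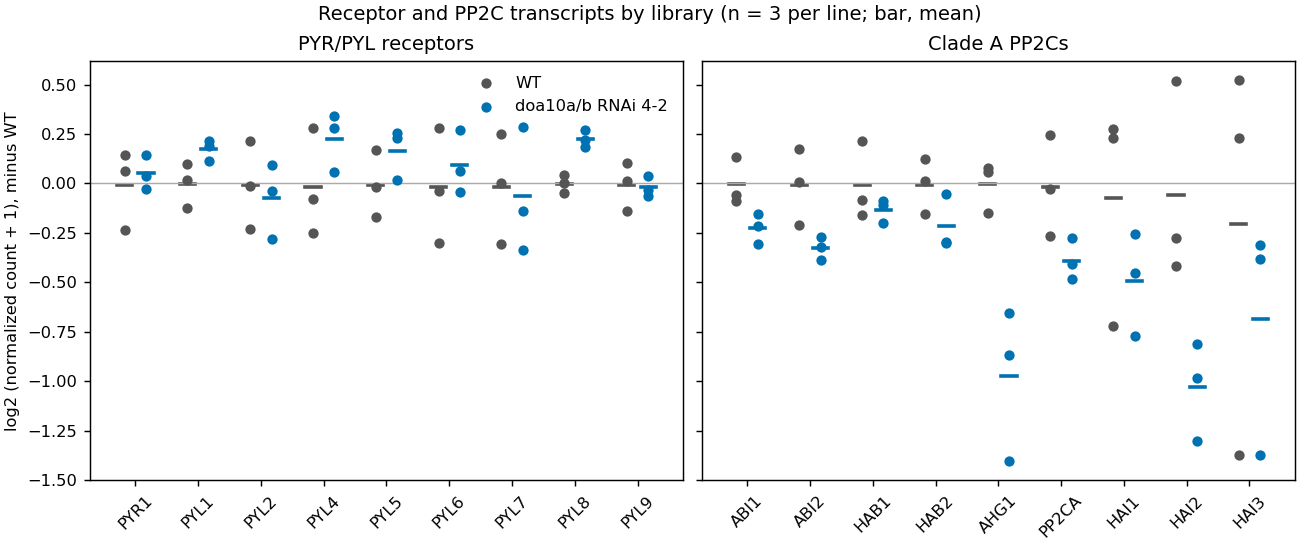
Log2 normalized count plus 1 of each receptor (left) and PP2C (right), minus that of the WT mean, in the 3 WT and 3 RNAi libraries (dots) with the mean (bar). The median over the receptors was 0.10 and over the PP2Cs -0.38 on the ratio of means.

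Of the kinases and transcription factors of the core pathway none of the 7 tested passed in the RNAi line. Ratios of means were below 0 for 3 of 3 kinases and 4 of 5 bZIP factors, with medians of -0.07 and -0.10. SnRK2.6, the kinase of guard cell ABA signalling, stood at 450, 455 and 500 against 534, 598 and 498 (log2 fold change -0.21 ± 0.09 SE, limma adjusted p = 0.247), and SnRK2.2 and SnRK2.3 had changes of -0.03 and -0.07. ABF1, ABF2, ABF3 and ABF4 overlapped between the lines, with log2 fold changes from -0.33 to -0.03. ABI5, a factor of seed and early seedling ABA response, was too low for the test, at 15.6, 4.95 and 5.47 against 2.72, 4.04 and 11.2.

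Among 10 genes known to be induced by ABA, 8 of which were tested, 0 rose and 3 fell (HB6, COR15A and RD29A, the latter pair named after their values were seen). COR15A and RD29A had log2 fold changes of -1.22 ± 0.26 and -0.51 ± 0.12 (limma adjusted p = 0.0328 and 0.0488), RD29A lying near the threshold. The median ratio of means of the 10 was -0.53 on the log2 scale. Over all transcripts tested 1.12% rose and 1.12% fell, and the counts at an adjusted p in this paragraph stand beside these shares. HB6, a homeobox factor that interacts with ABI1, stood at 3241, 3467 and 3357 in WT and at 2528, 2276 and 2597 in the RNAi line (log2 fold change -0.44 ± 0.07 SE, limma adjusted p = 0.0057). RD22, the most abundant of the list, had means of 6465 and 9344 and could not be split, and HB7 overlapped between the lines (0.08 ± 0.15, adjusted p = 0.831). Of 4 other signalling outputs tested, 1 fell, the guard cell potassium channel KAT1, at 263, 289 and 357 against 429, 425 and 416 (-0.49 ± 0.11, adjusted p = 0.0385). Of the 5 guard cell markers 0 passed the test. An unadjusted p under 0.05 was had by 16.5% of all transcripts tested and by 3 of these markers, which stood below WT. These were HT1 (-0.56 ± 0.19), MYB60 (-0.31 ± 0.12) and FAMA (-0.21 ± 0.09), with adjusted p = 0.167, 0.222 and 0.287. GC1, which carries most of the summed level (2765 to 3222 in the RNAi libraries and 2937 to 3534 in WT), and EPF1 had log2 fold changes of -0.00 and 0.28. None of the 5 was at 0, and their part in the change of KAT1 was not tested. Of 8 other metabolism and transport genes tested, BGLU33 alone fell and 0 rose.

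The NAT lines, labelled by the subunits of NatA and NatB, were compared with the same WT libraries, which the study relates to the RNAi line. Acetylation itself was not measured in these data. The median log2 ratio to WT over all transcripts, 0.21 for amiNAA10 and 0.10 for the libraries labelled naa20, was taken out first, and changes are relative to it. The library values printed for the NAT lines use the deposited size factors, without this step. Overlap with WT is read from these values, and so on another scale than the fold changes. In amiNAA10 the ABA-related changes were mixed. The receptor PYL7, the factors ABF1 and ABF4 and the kinase SnRK2.3 rose, and PP2CA, ABI2, NCED3 and CYP707A3 fell. In all, 7 of 23 members tested rose and 8 fell, where 16.1% of 15056 transcripts rose and 16.3% fell. With the deposited size factors in place of a common scaling, 7 members rose and 3 fell. By ratio of means 4 of 32 members were past 1.5-fold higher and 6 lower, against 5.99% and 9.27% of 20212 transcripts, and with no centring these became 6 and 4.

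PYL7 (AT4G01026, chromosome 4, 446978 to 448511, plus strand) stood at 150, 134 and 195 in amiNAA10 and at 52.5, 77.7 and 65.3 in WT. All amiNAA10 libraries were above all WT libraries, with a log2 fold change of 1.09 ± 0.18 (SE, limma adjusted p = 9.34e-04). Genes on the opposite strand overlap 49.7% of the exon sequence of PYL7, and the strand setting of the counting is not given in the sources used here, so reads of PYL7 and its partner cannot be told apart. The overlapping AT4G01030 had means of 113 in amiNAA10 and 79.1 in WT. The overlap was 29.1% for ABF4, 39.7% for ABA2, 13.8% for AAO3 and 10.9% for ABF1. The partner of ABF1, AT1G49730, was far more abundant than ABF1. It had means of 756 in amiNAA10, 605 in the libraries labelled naa20 and 666 in WT, where ABF1 had 113, 86.7 and 43.5. The part of its reads in the ABF1 counts was not tested.

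The other receptors differed less in amiNAA10. PYL6 stood at 715, 582 and 802 against 562, 451 and 376 (0.41 ± 0.14, adjusted p = 0.04), and the call was lost without amiNAA10 library a or c or without WT library b or c, with an adjusted p of up to 0.166. PYL1 fell by 0.22 on the log2 scale (limma adjusted p = 0.0475), with the groups overlapping before the common scaling. Its change was -0.03 (adjusted p = 0.761) with the deposited size factors. It was also lost without amiNAA10 library a or c and without WT library a or c, with the adjusted p at most 0.182. PYR1, PYL4 and PYL8 had only means in amiNAA10, of 1547, 1861 and 1679 against 1417, 2358 and 1146.

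Of 5 PP2Cs tested in amiNAA10, 4 fell and 0 rose, where 16.3% of all transcripts tested fell and 16.1% rose. PP2CA stood at 871, 761 and 734 against 925, 1320 and 1093 in WT, without overlap (log2 fold change -0.67 ± 0.11 SE, limma adjusted p = 7.54e-04). ABI2 stood at 305, 319 and 274 against 315, 412 and 367 (-0.47 ± 0.11, adjusted p = 0.00587). In these values, before the common scaling, amiNAA10 library b lay just above WT library a. With the deposited size factors ABI2 was at -0.28 with an adjusted p of 0.0546. HAB2 and HAI1 also fell (-0.28 ± 0.07 and -0.95 ± 0.32, adjusted p = 0.0125 and 0.0389), with overlap before the common scaling. Without amiNAA10 library a the adjusted p of HAB2 was 0.0557, and with the deposited size factors it was 0.342. That of HAI1 was 0.154 without amiNAA10 library c, 0.0869 without WT library b, 0.124 without WT library c and 0.0737 with the deposited size factors. ABI1 and HAB1 had only means, of 1226 and 2175 against 1491 and 2250.

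In the other steps of the pathway, ABF1 was among the members farthest above WT in amiNAA10, at 134, 73.1 and 132 against 38, 38.3 and 54.1 (1.14 ± 0.24, adjusted p = 0.00397). ABF4 stood at 1009, 931 and 975 against 650, 732 and 672 (0.32 ± 0.07, adjusted p = 0.00469) and SnRK2.3 at 426, 343 and 360 against 238, 257 and 196 (0.52 ± 0.12, adjusted p = 0.00573). Neither overlapped with WT. NCED3 stood at 67.8, 69.5 and 56.6 against 75.2, 139 and 120 (-0.93 ± 0.21, adjusted p = 0.00581). The catabolic genes split, CYP707A3 falling from 71.6, 51.5 and 88.8 in WT to 28.2, 30.7 and 46 (-1.18 ± 0.25, adjusted p = 0.00406) and CYP707A2, the seed-expressed member, rising from 72.5, 37.3 and 46.9 to 75.8, 114 and 98.8 (0.71 ± 0.24, adjusted p = 0.0382). The call of CYP707A2 was lost without amiNAA10 library b (adjusted p = 0.127), amiNAA10 library c (0.108), WT library b (0.108) or WT library c (0.0852). Library b of amiNAA10 had its highest level and most of the CRC and OLEO1 reads. For CRA1, the most abundant seed storage transcript there, the libraries are not known. AAO3 rose by 0.23 ± 0.07 (adjusted p = 0.0271) and SnRK2.6 fell by 0.25 on the log2 scale (adjusted p = 0.033). The former was lost without amiNAA10 library b or c or WT library a, with an adjusted p of up to 0.108. The latter was lost without each library in turn except WT library c, with an adjusted p of up to 0.102, and with the deposited size factors (-0.06, adjusted p = 0.584). SnRK2.2 and ABF3 had only means, 1541 and 2614 against 858 and 3541.

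In the libraries labelled naa20, transcripts of CYP707A1 and of the 4 bZIP factors that could be tested rose, the latter calls each being lost without at least 1 library, and 7 of 9 clade A PP2Cs had a ratio of means above 0 (median 0.21). In amiNAA10 8 of 9 had a ratio below 0 (median -0.49). AHG1 and HAI3 were below a mean of 10 in both comparisons. In all, 7 of 21 members tested rose and 4 fell, where 12.4% of 14930 transcripts rose and 13.0% fell. With the deposited size factors 9 members rose and 2 fell. By ratio of means 6 of 33 were past 1.5-fold higher and 3 lower, against 5.31% and 7.97% of 20168 transcripts.

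All 4 bZIP factors tested rose, where 12.4% of all transcripts tested did. ABI5 (AT2G36270, chromosome 2, 15204659 to 15207636, minus strand) stood at 17.9, 15 and 25.3 against 2.72, 4.04 and 11.2 in WT, without overlap (1.64 ± 0.47, adjusted p = 0.0192). At these counts the adjusted p was 0.0601 without library a labelled naa20, 0.0838 without its library c and 0.0767 without WT library a. ABF1 stood at 108, 69.2 and 82.9 against 38, 38.3 and 54.1 (0.90 ± 0.21, adjusted p = 0.00747), ABF2 at 823, 823 and 928 against 649, 676 and 680 (0.28 ± 0.07, adjusted p = 0.0108), and ABF4 at 940, 850 and 811 against 650, 732 and 672 (0.26 ± 0.08, adjusted p = 0.0223). Without 1 library the adjusted p was 0.0546 for ABF1 (library a labelled naa20) and 0.0612 for ABF2 (library c labelled naa20). For ABF4 it was 0.124 without library a labelled naa20, 0.0536 without library b, 0.0954 without WT library a and 0.0519 without WT library c. ABF3 had means of 4664 and 3541. SnRK2.6 stood at 714, 767 and 773 against 534, 598 and 498 and rose by 0.40 ± 0.08 (adjusted p = 0.00279).

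CYP707A1 (AT4G19230, chromosome 4, 10521259 to 10523961, plus strand), an ABA hydroxylase of the main catabolic route, stood at 422, 462 and 493 in the libraries labelled naa20 and at 218, 259 and 226 in WT. Every library was far above each of WT, with a log2 fold change of 0.89 ± 0.10 (SE, limma adjusted p = 2.18e-05), and between 0.84 and 0.97 in the other settings tried. CYP707A2 rose by 0.74 ± 0.22 (adjusted p = 0.0251), while CYP707A3 and CYP707A4 fell (-0.84 ± 0.26 and -1.05 ± 0.36, adjusted p = 0.0274 and 0.0452). The call of CYP707A4 did not hold without library a labelled naa20 (adjusted p = 0.173), its library c (0.0529) or any 1 of the WT libraries (0.0816, 0.0695 and 0.121 for a, b and c), with the deposited size factors (0.0552) or with no filter (0.0684). That of CYP707A2 did not hold without any 1 of the libraries labelled naa20 or without WT library b or c, with an adjusted p of up to 0.0857. That of CYP707A3 was lost without library a (adjusted p = 0.127) or c (0.0555) labelled naa20 and without WT library a (0.0847) or c (0.11).

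NCED3 stood at 119, 78.2 and 126, within the range of WT (-0.11 ± 0.23, adjusted p = 0.775), and ABA2 and AAO3 had log2 fold changes of -0.14 and 0.06. BGLU18 could be given only as means, 1008 against 1446, a log2 ratio of -0.62 with a 95% counting interval from -0.69 to -0.55. The interval covers counting error only.

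Among receptors, 2 of 6 tested fell in the libraries labelled naa20 and 0 rose, where 13.0% of all transcripts tested fell and 12.4% rose. PYL5 stood at 651, 632 and 545 against 833, 732 and 660 (-0.36 ± 0.09, adjusted p = 0.0137), without overlap, and the adjusted p was 0.0702 without library c labelled naa20 and 0.0789 without WT library a. PYL1 fell by 0.22 on the log2 scale (adjusted p = 0.0457), a call lost without any 1 of the libraries labelled naa20, without WT library a or c, with the deposited size factors or with no filter, with an adjusted p of up to 0.19. PYL7 stood at 50.8, 68.2 and 65.7, overlapping with WT (-0.15 ± 0.20, adjusted p = 0.63). Of the PP2Cs only ABI2 and HAI2 could be tested, and neither passed, at 496, 398 and 459 (0.23 ± 0.11, adjusted p = 0.135) and 24.5, 20.1 and 61.7 (0.91 ± 0.40, adjusted p = 0.115). The others had means alone. HAB1 had 3449 against 2250 in WT, PP2CA 1311 against 1113 and HAI1 198 against 114, log2 ratios of 0.52, 0.14 and 0.69.

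**Figure D3:**
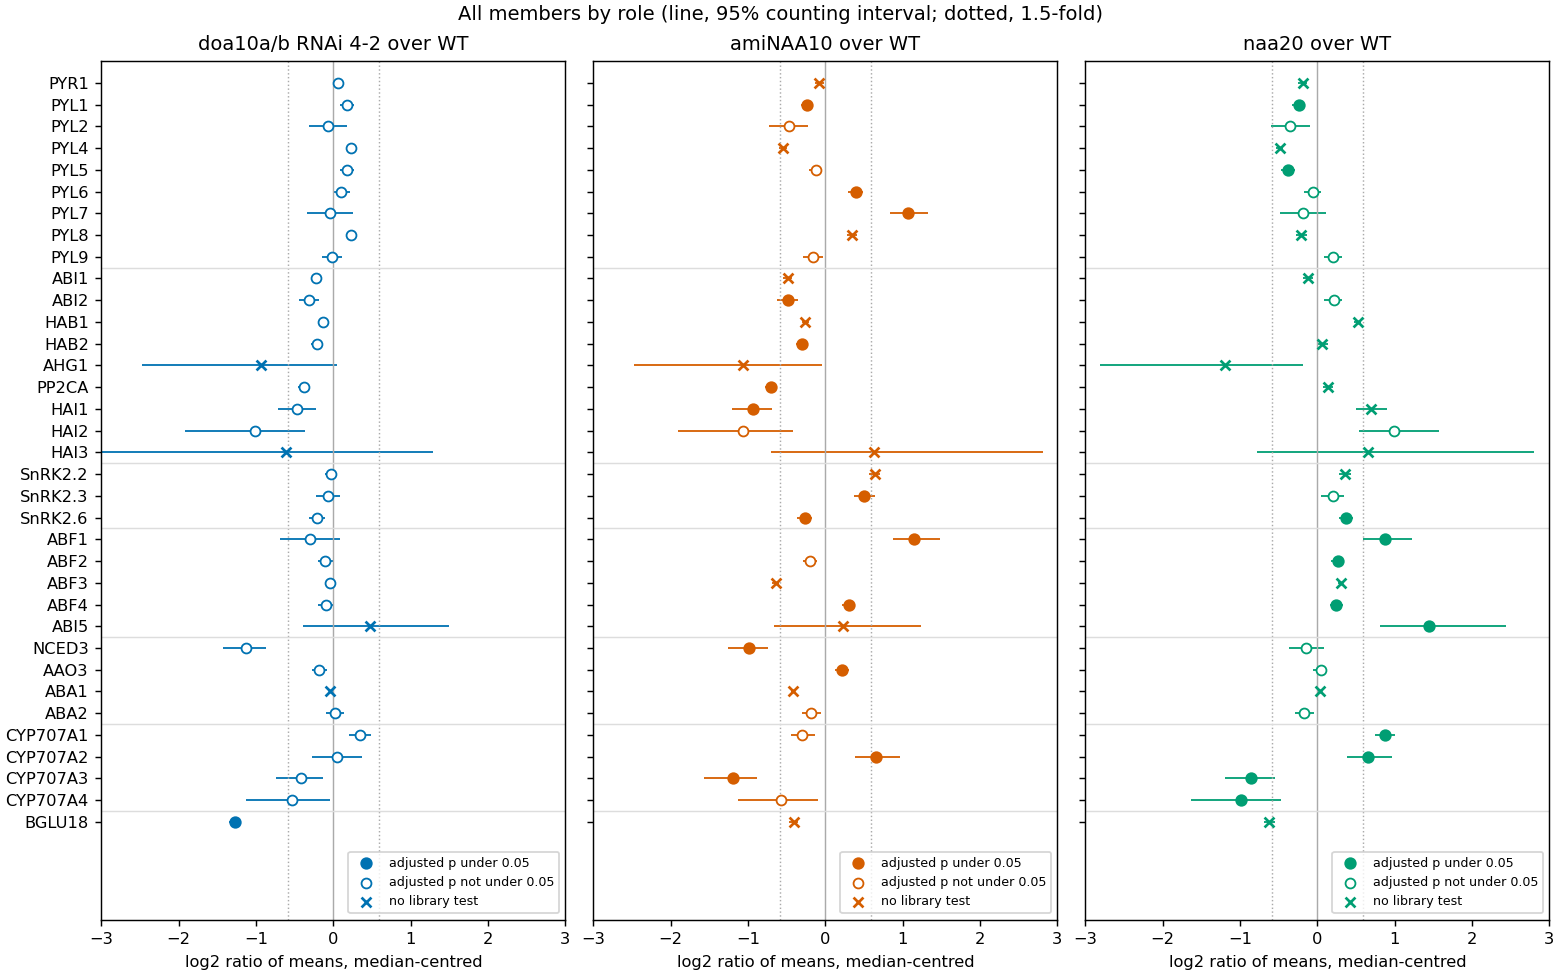
Median-centred log2 ratio of line means for the 35 members, by role, in doa10a/b RNAi 4-2, amiNAA10 and naa20 over WT. Lines are 95% counting intervals, dotted lines mark 1.5-fold, filled points had a limma adjusted p under 0.05, open points did not, and crosses had no library test. BGLU18 is the single filled point in the RNAi panel.

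Between the NAT lines, compared without WT, the pathway differed at several steps. CYP707A1, SnRK2.6, ABI2, ABF2, HAI2, NCED3, PYL9 and ABI5 were lower in amiNAA10 than in the libraries labelled naa20, and PYL7, PYL6, PYL5 and SnRK2.3 were higher. These were 8 and 4 of 21 members tested, where 19.7% of 14123 transcripts were lower and 20.2% higher. By ratio of means 10 of 33 members were past 1.5-fold lower and 1 higher, against 8.63% and 9.85% of 20223 transcripts. The tables of the lines were normalized separately, and a median log2 ratio of 0.10 was taken out.

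CYP707A1 stood at 211, 243 and 207 in amiNAA10 against the 422 to 493 of the libraries labelled naa20, a log2 fold change of -1.17 ± 0.10 (SE, limma adjusted p = 2.79e-08). SnRK2.6 stood at 522, 516 and 521, below each of 714, 767 and 773 (-0.65 ± 0.07, adjusted p = 4.93e-07). ABI2 was lower by 0.70 on the log2 scale (-0.70 ± 0.09, adjusted p = 1.06e-05) and HAI2, at 13.2, 7.22 and 4.79 against 24.5, 20.1 and 61.7, had a log2 fold change of -1.99 ± 0.43 (adjusted p = 0.00107). ABF2 and NCED3 had log2 fold changes of -0.47 ± 0.07 and -0.82 ± 0.19 (adjusted p = 4.30e-05 and 0.00175). These 6 calls were kept under every setting tried.

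PYL7 was higher by 1.24 ± 0.17 in amiNAA10 (adjusted p = 1.45e-05), and PYL6 by 0.43 ± 0.10 (adjusted p = 0.00225), both without overlap. PYL9 ran the other way, at 353, 338 and 326 against 447, 368 and 400 (-0.37 ± 0.09, adjusted p = 0.00275). PYL5 was higher by 0.25 ± 0.07 (adjusted p = 0.0093), or 0.0653 without library c labelled naa20. SnRK2.3 was higher by 0.29 ± 0.10 (adjusted p = 0.0292), which was lost without amiNAA10 library a or without library a or c labelled naa20, with an adjusted p of up to 0.179, and in a fit over 12 libraries (0.0555). ABI5, at 10.6, 7.22 and 7.67 against 17.9, 15 and 25.3, had a log2 fold change of -1.20 ± 0.37 (adjusted p = 0.0144), or 0.0827 without library c labelled naa20 and 0.058 in the fit over 12 libraries.

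**Figure D4:**
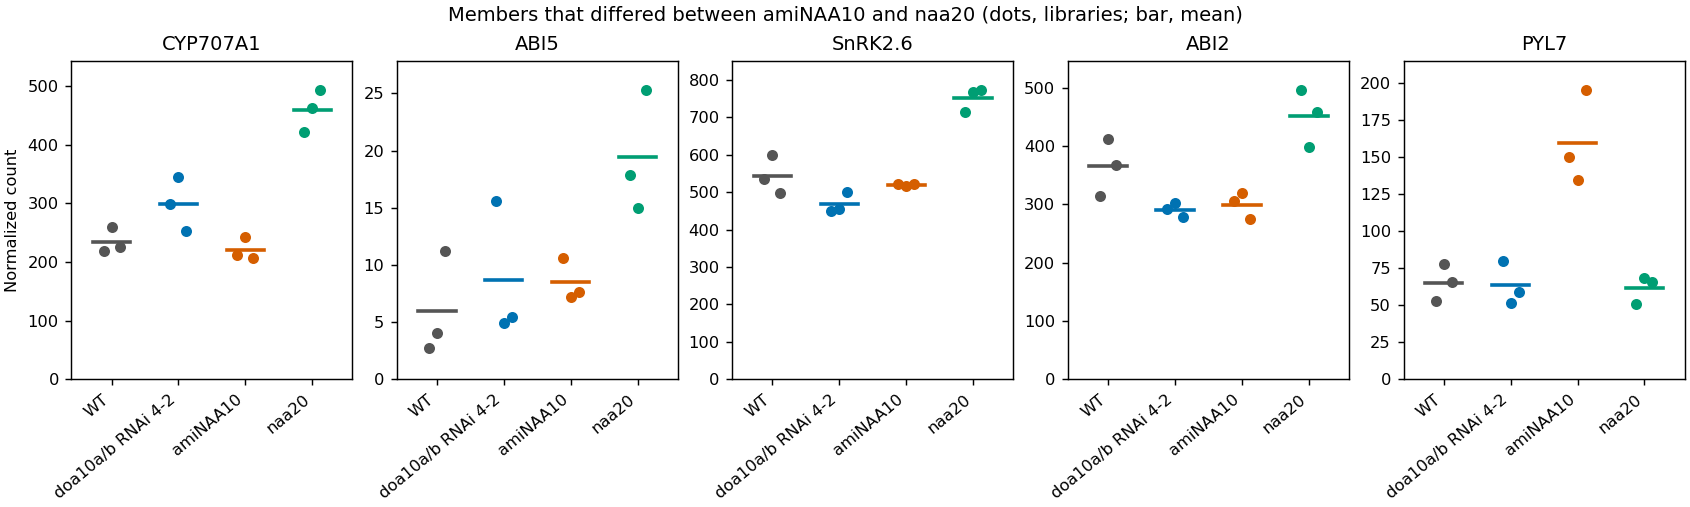
Normalized counts (linear axes from 0) of CYP707A1, ABI5, SnRK2.6, ABI2 and PYL7 in the 12 libraries (dots) of the 4 lines, with line means (bars). CYP707A1 lies at 207 to 243 in amiNAA10 and at 422 to 493 in the libraries labelled naa20, while PYL7 lies at 134 to 195 and 50.8 to 68.2.

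The balance of receptors to PP2Cs, set side by side over the 4 lines as line means, was highest in the RNAi line and lowest in the libraries labelled naa20. Per kilobase of exon the 9 receptors summed to 5682 in the RNAi line, 5385 in amiNAA10, 4521 in the libraries labelled naa20 and 5102 in WT. The 9 PP2Cs summed to 2279, 2291, 3355 and 2698. The ratios were 2.49, 2.35, 1.35 and 1.89. In the libraries labelled naa20 the sums moved most with HAB1, at 1234 per kilobase against 805 in WT, and PYL4, at 1251 against 1638. Both had means only there. By ratio of means to WT, 8 of 9 receptors were below 0 there and 7 of 9 PP2Cs above 0. Without division by exon length the summed receptors per summed PP2Cs were 1.54 in the RNAi line and 1.45 in amiNAA10. On that scale WT had 1.17 and the libraries labelled naa20 had 0.819, with receptors below PP2Cs in the latter. The RNAi libraries ran from 1.42 to 1.68 on that scale and WT library a stood at 1.46, so the order of the RNAi line and amiNAA10 is of means only. As differences between the median log2 ratio of the receptors and that of the PP2Cs, which do not depend on the centring, the values were 0.49 for the RNAi line over WT, 0.37 for amiNAA10 over WT, -0.41 for naa20 over WT and 0.80 for amiNAA10 over naa20. The 3 comparisons with WT share the same WT libraries. Library values of all 18 genes were had only for WT and the RNAi line, and no spread can be given for the other lines.

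**Figure D5:**
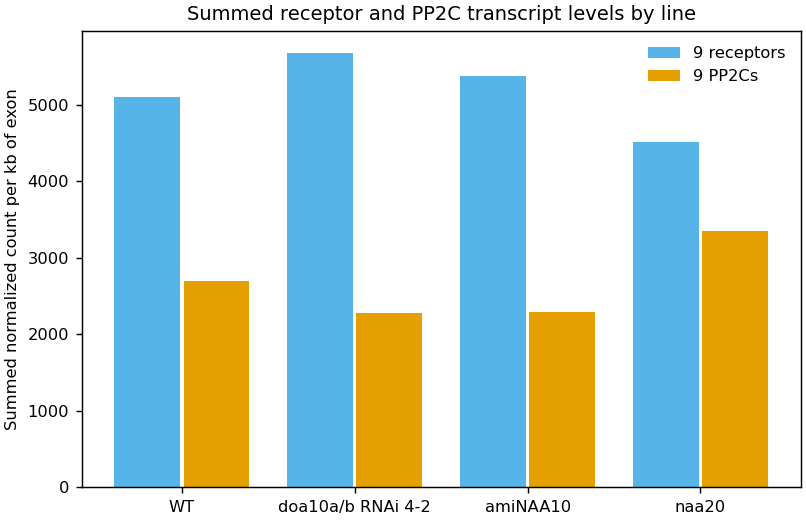
Summed normalized counts per kilobase of exon (linear axis from 0) of the 9 receptors and the 9 PP2Cs in the 4 lines, from line means with no error bars. Per kilobase, receptors exceed PP2Cs in each line, by a ratio from 1.35 in the libraries labelled naa20 to 2.49 in the RNAi line. Without division by exon length the ratio in the libraries labelled naa20 was 0.819.

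The ABA-induced genes were set beside these values. In amiNAA10 3 of 6 tested fell and 0 rose, with a median ratio of means of -0.58 over the 10, and in the libraries labelled naa20 1 rose and 1 fell, with a median of 0.17. The shares over all transcripts tested, beside which these and the following counts stand, were 16.1% higher and 16.3% lower in amiNAA10 and 12.4% and 13.0% in the libraries labelled naa20. RD22 and HB7 had means of 7364 and 846 in amiNAA10 and of 11809 and 2222 in the libraries labelled naa20, against 9344 and 1080 in WT, and HB6 had 2416 and 3868 against 3355. Among other ABA metabolism and transport genes, 3 of 7 tested rose in amiNAA10 and 4 of 7 in the libraries labelled naa20, and 0 fell in either. UGT71C5, which conjugates ABA to glucose, stood at 706, 768 and 762 in the libraries labelled naa20 against 611, 583 and 610 in WT (0.23 ± 0.07, adjusted p = 0.0253). Of 3 other signalling outputs tested, 3 fell in amiNAA10, among them KAT1 (-1.02 ± 0.09, adjusted p = 9.02e-06) and the NADPH oxidase RBOHF (-0.59 ± 0.08, adjusted p = 3.10e-04). In the libraries labelled naa20 KAT1 alone of the 3 fell (-0.36 ± 0.08, adjusted p = 0.00535). Of the guard cell markers, 1 of 4 tested fell in amiNAA10 (HT1, -0.75 ± 0.20, adjusted p = 0.0116) and 2 of 3 in the libraries labelled naa20 (HT1, -0.72 ± 0.18, and MYB60, -0.43 ± 0.12, adjusted p = 0.00974 and 0.0194). The other guard cell markers tested did not pass. Ratios of means were below 0 for 4 of 5 in amiNAA10 and for 5 of 5 in the libraries labelled naa20. GC1, which had means only, stood at 2928 and 2339 against 2389 in WT, and the 5 markers summed to 3637 and 3006 against 3148. Their part in the change of KAT1 was not tested there either. Of the 5 PYL receptors outside the members, none reached a mean of 10 over WT and another line, and 4 had means of at most 8.52. PYL3 stood at 14.1, 17 and 18.2 in the libraries labelled naa20 against 2.72, 4.04 and 2.04 in WT, without overlap. It was lower in amiNAA10, at 11.5, 9.03 and 3.84 (amiNAA10 over naa20 -1.15 ± 0.42, adjusted p = 0.0357). At these low counts the call was lost without amiNAA10 library c (adjusted p = 0.158) or without library a, b or c labelled naa20 (0.0638, 0.0895 and 0.103). It was lost as well without the filter on low means (0.0514) and with the deposited size factors (0.0512). PYL3 and the single markers given above were named after their values were seen.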

How the data were processed

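Poly(A) RNA of 12 libraries, 3 for each of 4 lines, had been sequenced. Reads had been mapped to TAIR10 with TopHat2 2.0.12 on Bowtie2 2.2.3, counted by HTSeq 0.6.1 and normalized in DESeq 1.18.0, according to the submitters' processing notes, whereas HISAT2, edgeR and DESeq2 are given in the study's methods. The strand setting of the counting is not given in the sources used here. The deposited signal is the mean over 3 libraries of read counts divided by size factors, as the authors made it, in 3 tables of 1 mutant and WT each. Other deposited columns hold the authors' own fold changes and p-values, which were not used. The WT columns of the amiNAA10 and naa20 tables (2 columns) belong by the study's data statement to another series and were not used.

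Each mean was searched for 3 whole counts that give it within its printed rounding, by 3 recurring steps per column, up to means of 6000 in the RNAi table and 1500 in the others, with libraries searched within 60% of the mean or a wider window at low counts. Means with exactly 1 solution were split. In the table of the RNAi line, size factors computed from the split reads as the median of ratios differed from the steps by at most 0.1%. Splitting and testing were tested on simulated data. The libraries carry no replicate numbers, and their letters are names. The labels give 3 biological replicates per line without saying what was grown apart, and p-values measure the spread between these libraries.

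Ratios of means used a pseudocount of 1, transcripts with a mean of at least 10 over both lines, and the subtraction of their median log2 ratio, with past 1.5-fold as the call. Their 95% intervals are exact conditional binomial ones on 3 times the mean and cover counting error only. Because the files proved to hold library counts, limma 3.58.1 (R 4.3.3, trend) was added after the data were seen, on log2 of reads over size factor plus 1, with the same minimum of 10 and a Benjamini-Hochberg adjustment over all transcripts tested. Values written with ± are limma log2 fold changes and their SE, with n = 3 per line, and adjusted p-values are limma's. Fold changes on this scale understate those of low transcripts. Positions and sequences are from RefSeq TAIR10.1, the files giving TAIR10 and no coordinates. Named genes are the 35 members, the 4 targeted genes and up to 3 of the most abundant of each other list. The members and lists were chosen with earlier results of these data known.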

Additional observations from a re-analysis of the deposited data

How the results depend on the processing

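The count of members past 1.5-fold in the RNAi line, 3, was 5 with no filter on low means. At a 2-fold threshold it was 4 of a former 10 in amiNAA10 over WT, 1 of 9 in naa20 over WT and 5 of 11 in amiNAA10 over naa20. The receptor minus PP2C difference in amiNAA10 over WT, 0.37, was 0.54 when means replaced medians over the genes. Other pseudocounts, filters, scalings and choices of genes kept these counts within 1.5 times and each receptor minus PP2C difference on its side of 0. By limma, leaving out 1 library in turn gave 1 to 2 members in the RNAi comparison, where RNAi library c and WT library a gave 2. It gave 9 to 13 in amiNAA10 over WT, with 9 without amiNAA10 library c, 4 to 11 in naa20 over WT and 9 to 13 in amiNAA10 over naa20. In naa20 over WT there were 4 without library a or c labelled naa20, 5 without WT library a and 6 without WT library c. Over all transcripts the RNAi comparison called 220 that rose and 219 that fell, and without RNAi library b 48 rose and 50 fell, without RNAi library a 98 and 107, and without WT library a 105 and 86. Of 39 calls on members 19 were kept under every setting and 20 were lost under at least 1, with no reversal. In the fit over all 12 libraries the 1 member called in the RNAi comparison was NCED3, since BGLU18 could not be split in every line. With the deposited size factors, transcripts that rose and fell were 5195 and 1391 in amiNAA10 over WT (2429 and 2450 with common scaling), 2750 and 1499 in naa20 over WT (1854 and 1947), and 4179 and 1867 in amiNAA10 over naa20 (2857 and 2776). The causes were not tested. No paired analysis was possible because the libraries split from the means carry no replicate numbers. Transcripts above the split limit, among them PYR1, PYL4, PYL8 and ABI1 in the NAT lines, have no library spread, and at the levels of AHG1, HAI3 and ABI5 small differences were not detectable.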
